A study of Mus musculus with 13 samples.

Results

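Ccl2, Ccl7, Cxcl1, Il6 and Csf1 encode secreted chemokines and cytokines, and Nfkbia, Nfkb1, Nfkb2, Relb and Tnfaip3 encode subunits or inhibitors of the transcription factor NF-kB. These 10 genes, of 34857 in the deposited tables, were chosen by name with earlier results of these data known. Counts of them set beside shares over all genes therefore describe and do not test. Each of the 10 genes was found once by its Ensembl identifier. They were measured by poly(A) RNA sequencing in Neuro2a, a line of mouse neuroblastoma cells that grows in culture with neuron-like features. The study modelled a storage tank that runs dry. Experimental cells, frozen in 10% DMSO, stood in a flask whose liquid nitrogen evaporated over 10 h, were held for a further 24 h while the flask settled at 4 °C, were refrozen at -80 °C for 72 h, and were then thawed at 37 °C and plated. Control cells were frozen in the same medium, stayed in regular cryostorage for that time and were thawed and plated in the same way. RNA was taken at passage 1, early in recovery, from 3 control and 4 experimental libraries, and at passage 6, when the cells looked normal again, from 3 control and 3 experimental libraries. All libraries come from this 1 cell line, and the labels do not say whether replicates came from separate vials or cultures, so p-values reflect only how far these samples scatter, a scatter that may be technical.

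In resting cells NF-kB dimers, built from RelA, RelB, c-Rel and the products of Nfkb1 and Nfkb2, are held in the cytoplasm by IkB proteins, of which IkB-alpha (encoded by Nfkbia) is the best known. When a receptor activates the IkB kinases, IkB-alpha is degraded and the dimers enter the nucleus, where they induce chemokine and cytokine genes and also their own brakes, Nfkbia and Tnfaip3 among them. Ccl2 and Ccl7 attract monocytes, Cxcl1 attracts neutrophils, Il6 is a pleiotropic cytokine and Csf1 is the growth factor of macrophages.

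Values are FPKM (fragments of a transcript, divided by its length in kilobases and by the size of the library), and each fold change is 2 to the power of the fitted change in log2(FPKM + 1), so it understates the change of a gene at a low level. A gene was called changed where its adjusted p, from limma with Benjamini-Hochberg adjustment over all genes tested, was under 0.05. Each library had 12014 to 12467 genes at 1 FPKM or more. The tables hold no read counts. From the steps between low values of single-exon genes, 1 read was worth 1.41 times as much in the shallowest library as in the deepest, although only 25.7 to 31.5% of the low values lay on a step. The 18 neuroblastoma and neuronal markers of the list summed to 953 to 1350 FPKM in each library. Of 15 macrophage and leukocyte markers, 11 stayed below 1 FPKM in every library, and Ptprc was at most 0.0957 FPKM. Some libraries stood apart in markers of other tissues. Cartilage markers summed to 7.21 FPKM in passage 1 control 1 and to 8.71 in experimental library 4, against 33.2 to 51.9 in the remaining 5 of that passage. At passage 6 experimental libraries 2 and 3 had summed liver markers of 223.7 and 181.6 FPKM, against at most 2.9 in all other libraries, and summed brain markers of 174.7 and 147.3 FPKM, against at most 57.6. Ttr, which reached 61.99 FPKM in the passage 6 experimental group, is in both lists and so counted in both sums. Experimental libraries 2 and 3 also had summed fibroblast markers of 531.9 and 506.2 FPKM, against 317.8 to 323 in the other 4 of passage 6. Results were therefore recomputed without these libraries. Summed colon epithelium markers were lower in experimental cells without overlap at both passages, at 199.7 to 419.9 FPKM in the control libraries and 6.96 to 166.6 FPKM in the experimental ones at passage 1, and at 106.2 to 209.6 and 6.54 to 99.9 FPKM at passage 6. The lowest were experimental library 3 at passage 1 and experimental libraries 2 and 3 at passage 6. Summed endothelial markers, of which Egfl7 made up most of the level, also did not overlap, at 18.8 to 19.4 against 12.6 to 17.7 FPKM at passage 1 and 26.6 to 27.9 against 22.2 to 23.8 FPKM at passage 6, and neither did summed cartilage markers at passage 6 (36.6 to 62 against 18.6 to 20.8 FPKM). The part of these markers in the results was not tested. In bulk RNA, fewer cells that express a gene and less RNA per cell cannot be told apart.

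The stretches just upstream of 4 of these genes are shown because each of the 4 was higher in experimental cells at passage 1 and each carries a match to the kappaB consensus, the short sequence that NF-kB binds. The sequences are RefSeq's (GRCm38.p6), 5′ to 3′ on the strand of the gene, and end at the base before the annotated gene start. Capitals mark the kappaB match.
Cxcl1, chr5:90890995-90891240, plus strand: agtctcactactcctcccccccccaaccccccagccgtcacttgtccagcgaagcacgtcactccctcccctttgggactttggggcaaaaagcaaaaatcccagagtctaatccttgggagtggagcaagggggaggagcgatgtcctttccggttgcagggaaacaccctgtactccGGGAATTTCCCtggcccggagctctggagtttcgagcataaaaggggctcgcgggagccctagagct
Il6, chr5:30012864-30013113, plus strand: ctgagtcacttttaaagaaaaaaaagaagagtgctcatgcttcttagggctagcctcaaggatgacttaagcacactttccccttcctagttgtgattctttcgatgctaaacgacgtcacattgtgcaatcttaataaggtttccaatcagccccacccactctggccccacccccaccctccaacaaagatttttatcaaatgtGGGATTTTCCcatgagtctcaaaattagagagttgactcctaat
Csf1, chr3:107760470-107760719, minus strand: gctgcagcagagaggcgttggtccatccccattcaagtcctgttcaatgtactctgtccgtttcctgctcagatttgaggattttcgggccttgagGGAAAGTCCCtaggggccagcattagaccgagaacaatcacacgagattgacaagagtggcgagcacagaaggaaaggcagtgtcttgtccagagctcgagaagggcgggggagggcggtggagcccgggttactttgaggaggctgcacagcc
Nfkbia, chr12:55492648-55492897, minus strand: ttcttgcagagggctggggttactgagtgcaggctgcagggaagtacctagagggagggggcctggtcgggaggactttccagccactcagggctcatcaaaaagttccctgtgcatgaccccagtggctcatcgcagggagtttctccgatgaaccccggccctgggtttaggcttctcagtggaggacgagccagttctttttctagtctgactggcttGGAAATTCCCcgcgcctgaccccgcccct

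Counted from the RefSeq transcription start, the match of Cxcl1 lay at -71 to -62 with an overlapping one on the other strand at -70 to -61, that of Il6 at -44 to -35, that of Csf1 at -154 to -145 and that of Nfkbia at -29 to -20. Promoter windows from 250 bases before to 50 bases after the start were found for 6 of the 10 genes, and Ccl2, Ccl7, Nfkb1 and Relb had none in the table used. All 3 windows of Nfkb2 held matches, and 1 of the 2 windows of Tnfaip3 did. Windows 2 and 3 of Nfkb2 overlap and share the same GGGACTTTCC, the only kappaB match of window 3. The consensus, searched on both strands, was found in 8.46% of 32851 mouse windows, and 1.22% held more than 1 match, overlapping ones counted separately. The AP-1 motif TGANTCA, present in 7.81% of windows, was found for Il6, Nfkb2 and Tnfaip3, and the C/EBP motif TTGCNNAA, present in 10.8%, for Il6. A match describes these letters and is not evidence that a factor bound there.

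The first comparison asks how cells that came through the storage failure differed from controls early in recovery. At passage 1 the chemokine and cytokine genes were higher in experimental cells, Ccl2 by the most, and of the NF-kB genes Nfkbia, Nfkb2 and Tnfaip3 were higher while Nfkb1 was lower. Of the 10 genes 9 had at least 1 FPKM in at least 3 libraries, which was the condition for testing, and each of the 9 reached it in the control libraries as well. By limma, 7 were called higher, 1 was called lower and 1 was not called, where 30.4% of all 12469 genes tested were called, 11.5% higher and 18.9% lower. The median log2 change was 0.38 over the 9 genes and -0.05 over all genes tested. The FPKM of control and experimental libraries did not overlap for any of the 10 genes, of which 8 were higher and 2 lower in every experimental library, against 42.6% of all genes tested without overlap.

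**Figure D1:**
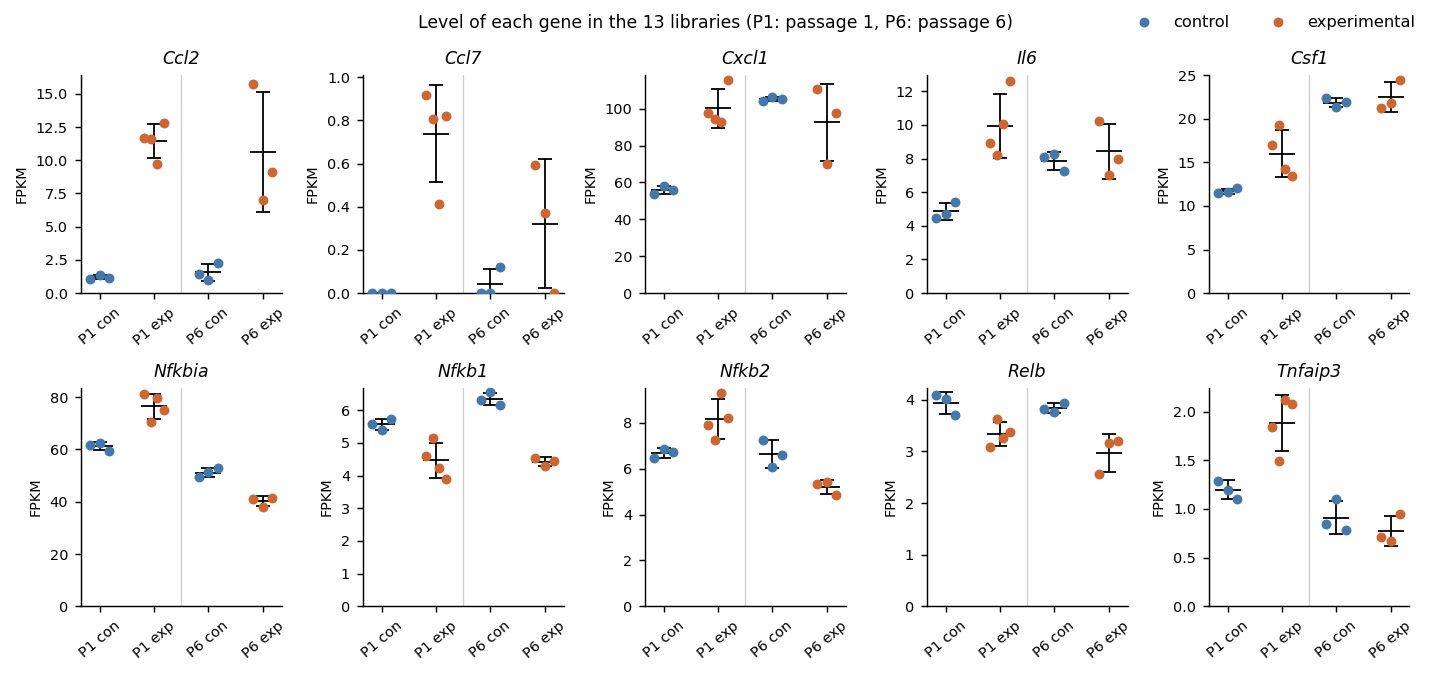
FPKM of the 10 genes (vertical axes, each starting at 0) in the 13 libraries, grouped along the horizontal axis as control (con) and experimental (exp) at passage 1 and passage 6. Points are libraries, and the bars show the mean ± SD of each group (n = 3, 4, 3 and 3). Ccl2 lies between 9.69 and 12.8 FPKM in the 4 experimental libraries of passage 1 and between 6.99 and 15.7 in the 3 of passage 6, above all controls, which reach 2.25 at most.

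Ccl2 (ENSMUSG00000035385, chromosome 11, 82035571 to 82037453, plus strand, GRCm38) had 1.09, 1.34 and 1.15 FPKM across the 3 controls and 11.7, 11.6, 9.69 and 12.8 FPKM across the experimental libraries. Every experimental library was far above every control. The ratio of the group means was 9.55, and the fitted change was 2.50 on the log2 scale (SE 0.09, 95% interval 2.29 to 2.70, limma adjusted p = 7.4e-06). It ranked 5 among the 12469 genes by the size of its rise. Summed macrophage and leukocyte markers were 2 to 5.5 FPKM in the control libraries and 1.1 to 3.68 FPKM in the experimental ones, and Adgre1, which defines macrophages, was at 0 in 11 of the 13 libraries. Summed fibroblast markers, nearly all of them Fbln1, were 118.5 to 139.5 FPKM in the control libraries and 139.9 to 165 FPKM in the experimental ones, and their part in the result was not tested. Without experimental library 3, the lowest in colon markers, the Ccl2 change was 2.57 on the log2 scale (limma adjusted p = 6.6e-06). A gene on the opposite strand, Gm17268, spans Ccl2 without sharing its exons and was not analysed here.

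Ccl7, whose product also attracts monocytes, lies 8258 bases downstream of Ccl2 on the same strand (ENSMUSG00000035373, chromosome 11, 82045712 to 82047525). It was listed at 0 in all 3 controls and at 0.919, 0.806, 0.411 and 0.82 FPKM in the experimental libraries, so that all 4 experimental libraries and no control had a value above 0. It reached 1 FPKM in no library and was not tested in the fit above. By the estimated steps, 1 read of Ccl7 was worth 0.0323 to 0.0455 FPKM, so the experimental values stand for about 11.02 to 25.4 reads. No fold is given against controls listed at 0.

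Cxcl1, the neutrophil chemokine gene (ENSMUSG00000029380, chromosome 5, 90891241 to 90893115, plus strand), was among the most abundant of the set at 53.7, 57.9 and 56.1 FPKM in the control libraries and 97.7, 94.3, 92.9 and 115 FPKM in the experimental ones. The groups were well apart, with a 1.77-fold rise (log2 0.82, SE 0.08, limma adjusted p = 0.000394). Il6 (ENSMUSG00000025746, chromosome 5, 30013114 to 30019981, plus strand) came to 4.47, 4.7 and 5.41 FPKM in the control libraries, compared with 8.96, 8.23, 10 and 12.6 FPKM in the experimental ones. All 4 experimental libraries exceeded the controls, experimental library 4 by the most, and the rise was 1.85-fold (log2 0.89, SE 0.13, limma adjusted p = 0.0022).

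Csf1, the macrophage growth factor gene (ENSMUSG00000014599, chromosome 3, 107741048 to 107760469, minus strand), measured 11.5, 11.6 and 12 FPKM in the controls against 17, 19.3, 14.2 and 13.4 FPKM in the experimental libraries. Experimental libraries 3 and 4 lay closer to the controls than libraries 1 and 2 did. The rise was 1.33-fold (log2 0.41, SE 0.11, limma adjusted p = 0.0281). It was no longer called without control 1, 2 or 3 or without experimental library 1, with limma adjusted p of 0.0619 to 0.0888.

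The feedback inhibitors of NF-kB were also higher at passage 1. Nfkbia (ENSMUSG00000021025, chromosome 12, 55489410 to 55492647, minus strand), the gene with the highest control level of the 10 at passage 1, had 61.5, 62.6 and 59.5 FPKM across the controls and 81.1, 70.6, 79.8 and 74.9 FPKM across the experimental libraries. The groups did not overlap and the rise was 1.25-fold (log2 0.32, SE 0.06, limma adjusted p = 0.00522). Tnfaip3, which encodes the ubiquitin-editing enzyme A20 that shuts down signalling to the IkB kinases (ENSMUSG00000019850, chromosome 10, 19000910 to 19015657, minus strand), came to 1.29, 1.2 and 1.1 FPKM in the control libraries, compared with 1.84, 1.49, 2.11 and 2.08 FPKM in the experimental ones. Its 4 experimental libraries were all higher, library 2 by the least (log2 0.38, SE 0.09, limma adjusted p = 0.0179). Without control 2 or control 3 it was not called (limma adjusted p = 0.0605 and 0.072).

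The subunit genes did not move together. Nfkb2, which encodes the p100 precursor of p52 (ENSMUSG00000025225, chromosome 19, 46304320 to 46312385, plus strand), measured 6.45, 6.88 and 6.71 FPKM in the controls against 7.89, 7.23, 9.3 and 8.19 FPKM in the experimental libraries. All experimental libraries were higher, library 2 narrowly (log2 0.25, SE 0.08, limma adjusted p = 0.0408). Nfkb1, which encodes the p105 precursor of p50 (ENSMUSG00000028163, chromosome 3, 135584655 to 135691547, minus strand), had 5.56, 5.4 and 5.73 FPKM across the controls and 4.59, 5.14, 4.24 and 3.88 FPKM across the experimental libraries. Here every experimental library was lower, again with library 2 nearest to the controls, and the change was -0.27 on the log2 scale (SE 0.08, limma adjusted p = 0.037). Relb, the partner of p52 in the noncanonical pathway (ENSMUSG00000002983, chromosome 7, 19606217 to 19629438, minus strand), came to 4.1, 4.02 and 3.7 FPKM in the control libraries, compared with 3.08, 3.63, 3.26 and 3.38 FPKM in the experimental ones. Its groups did not overlap, yet the difference of -0.19 on the log2 scale (95% interval -0.34 to -0.04) was not called (limma adjusted p = 0.0569).

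The calls of Nfkb2 and Nfkb1 at passage 1 were near the threshold. With 1 library left out at a time, the log2 changes kept their sign, at 0.19 to 0.30 for Nfkb2 and -0.33 to -0.22 for Nfkb1. Nfkb2 lost its call without control 1, 2 or 3 or experimental library 1 or 4 (limma adjusted p = 0.0593 to 0.134). Nfkb1 lost it without control 1, 2 or 3 or experimental library 1, 3 or 4 (0.0551 to 0.12), and also after scaling by median of ratios (0.0682), after quantile normalization (0.0837) and with FPKM totals made equal (0.0688). Relb was called without experimental library 2 (limma adjusted p = 0.0336). The 3′ end of Nfkb2 overlaps exons of Psd on the opposite strand, and Psd stood at 7.85 ± 0.279 FPKM in the control libraries and 7.44 ± 0.84 FPKM in the experimental ones (mean ± SD, n = 3 and 4). An antisense noncoding gene, AC114539.1, also shares exon sequence with Nfkb2 and stood at 0.386 to 1.48 FPKM. The library preparation marked the strand, per the labels, but whether the authors' quantification used it is not given in the sources used here. With control 1 and experimental library 4 both left out, the 2 libraries low in cartilage markers, 3 of the 10 genes were called: Ccl2 (limma adjusted p = 0.000869), Cxcl1 (0.00439) and Il6 (0.0178), and Nfkbia had 0.0608. Over all 12469 genes tested, 441 were then called higher and 588 lower, against 1434 and 2358 with all libraries.

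The second comparison asks what remained at passage 6. Ccl2 was again higher in experimental cells, Cxcl1, Il6 and Csf1 were not called, and Nfkbia, Nfkb1, Nfkb2 and Relb were lower. Of the 10 genes 8 were tested, and Ccl7 and Tnfaip3 missed the filter. By limma 1 was called higher, 4 lower and 3 were not called, where 19.8% of the 12458 genes tested were called, 8.98% higher and 10.8% lower. The median log2 change was -0.25 over the 8 genes and -0.04 over all genes tested. Groups did not overlap for 5 of the 10 genes, against 41.7% of the genes tested.

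**Figure D2:**
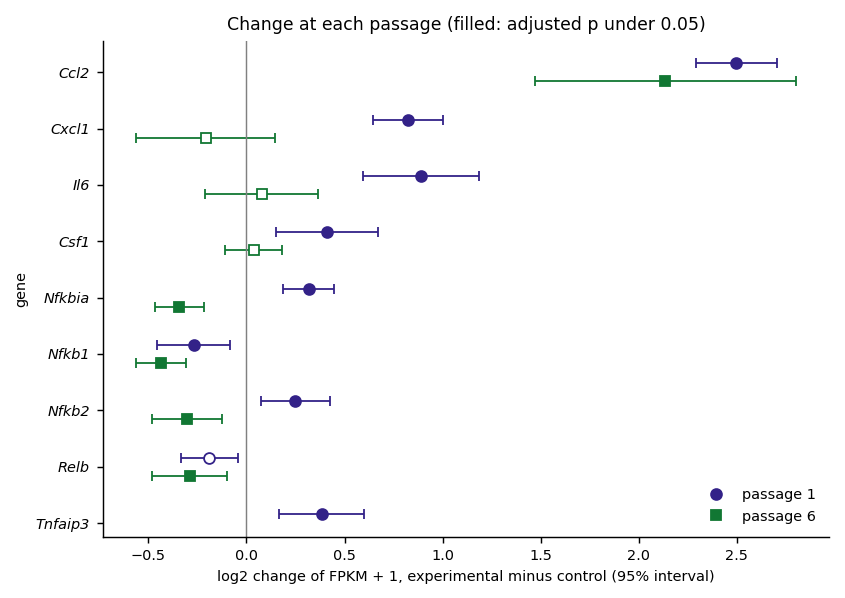
Fitted change of each gene in log2(FPKM + 1), experimental minus control (horizontal axis), at passage 1 (circles) and passage 6 (squares), with 95% intervals. Filled symbols have a limma adjusted p under 0.05, and Ccl7 (both passages) and Tnfaip3 (passage 6) were not tested. Nfkbia and Nfkb2 lie to the right of 0 at passage 1 and to the left at passage 6.

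Ccl2 measured 1.46, 0.996 and 2.25 FPKM in the passage 6 controls against 15.7, 6.99 and 9.14 FPKM in the experimental libraries. All experimental libraries were above all controls, but they spread more widely than at passage 1, with library 1 the highest. The ratio of the means was 6.77 and the fitted change 2.14 on the log2 scale (SE 0.28, 95% interval 1.47 to 2.8, limma adjusted p = 0.00465), which ranked 5 of 12458. Control 2 was just under 1 FPKM, so Ccl2 met the filter through 2 controls and the 3 experimental libraries. Libraries 2 and 3, which held the liver and brain transcripts, the higher fibroblast marker sums and the lowest colon marker sums, had the lower Ccl2 values, and summed macrophage and leukocyte markers of 7.31 and 6.66 FPKM against 2.59 in library 1 and 1.97 to 3.41 in controls. Without libraries 2 and 3 the change was 2.73 on the log2 scale (limma adjusted p = 0.00638), with the remaining experimental library assumed to vary as the controls did. Ccl7 was listed at 0, 0 and 0.123 FPKM in the control libraries and at 0.593, 0.372 and 0 FPKM in the experimental ones, so the groups overlapped. The value of control 3 is near the 0.125 FPKM that 3 reads would give in that library.

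The other secreted factors did not differ beyond the spread. Cxcl1 had 104, 106 and 105 FPKM across the controls and 110, 69.8 and 97.6 FPKM across the experimental libraries. Experimental library 1 lay above the controls and libraries 2 and 3 below them, and the log2 change of -0.21 (95% interval -0.56 to 0.15) was not called (limma adjusted p = 0.359). Il6 came to 8.07, 8.26 and 7.23 FPKM in the control libraries, compared with 10.2, 7.04 and 8 FPKM in the experimental ones, again with library 1 above the controls and library 2 below them. Its change was 0.08 on the log2 scale (95% interval -0.21 to 0.36, limma adjusted p = 0.676). Csf1 measured 22.4, 21.3 and 21.9 FPKM in the controls against 21.3, 21.8 and 24.4 FPKM in the experimental libraries, which overlapped. Its change was 0.04 on the log2 scale (95% interval -0.11 to 0.18, limma adjusted p = 0.687). Without experimental libraries 2 and 3, which leaves 1 experimental library and takes the spread from the controls alone, Il6 had a log2 change of 0.35 (limma adjusted p = 0.0447) and Cxcl1 one of 0.07 (adjusted p = 0.189).

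Among the NF-kB genes, 4 were lower at passage 6. Nfkbia had 49.3, 51.2 and 52.9 FPKM across the controls and 40.9, 38 and 41.6 FPKM across the experimental libraries. The groups were separate, with a change of -0.34 on the log2 scale (SE 0.05, limma adjusted p = 0.00783). Nfkb1 came to 6.31, 6.55 and 6.17 FPKM in the control libraries, compared with 4.55, 4.28 and 4.44 FPKM in the experimental ones. It had the clearest separation of the subunit genes, and was 1.35-fold lower (log2 -0.44, SE 0.05, limma adjusted p = 0.0039). Tnfaip3, not tested, measured 0.843, 1.1 and 0.789 FPKM in the controls against 0.708, 0.67 and 0.948 FPKM in the experimental libraries, which overlapped.

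Nfkb2 had 7.26, 6.06 and 6.61 FPKM across the controls and 5.33, 5.4 and 4.83 FPKM across the experimental libraries. All experimental libraries were lower (log2 -0.3, SE 0.08, limma adjusted p = 0.0329). Relb came to 3.83, 3.75 and 3.94 FPKM in the control libraries, compared with 2.56, 3.16 and 3.2 FPKM in the experimental ones, all lower and library 1 the lowest (log2 -0.29, SE 0.08, limma adjusted p = 0.0459). Both calls were near the threshold. Without control 1, 2 or 3 or experimental library 2 or 3, neither Nfkb2 (limma adjusted p = 0.0547 to 0.115) nor Relb (0.059 to 0.146) was called. With median-of-ratios scaling they had 0.0518 and 0.0674, with quantile normalization 0.0552 and 0.0772, and with equal FPKM totals Relb had 0.0906. Psd, which overlaps Nfkb2, was at 9.96 ± 0.115 and 9.91 ± 1.74 FPKM (mean ± SD, n = 3 and 3). Leaving out experimental libraries 2 and 3 together left 1 experimental library. The log2 changes were then -0.32 for Nfkbia, -0.40 for Nfkb1, -0.27 for Nfkb2 and -0.44 for Relb.

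**Figure D3:**
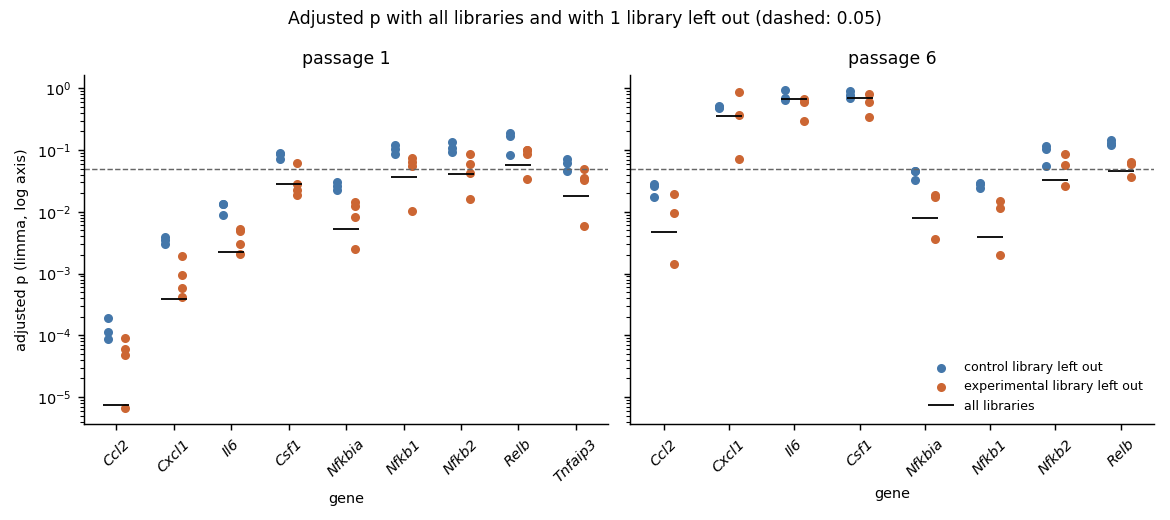
Adjusted p of the genes tested (limma, log axis) with all libraries (bars) and with 1 library left out at a time (points, coloured by the group of the library left out), at passage 1 (left) and passage 6 (right). The dashed line marks 0.05. Ccl2 and Nfkbia stay under the line in every case at both passages, as do Cxcl1 and Il6 at passage 1 and Nfkb1 at passage 6.

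The changes at the 2 passages were then compared with each other, as the passage 6 change minus the passage 1 change, over all 13 libraries. The difference was below 0 for Cxcl1, Il6, Nfkbia, Nfkb2 and Tnfaip3 and was not called for Ccl2, Csf1, Nfkb1 and Relb. Thus 5 of the 9 genes tested were called, all toward lower at passage 6, where 14.7% of the 13019 genes tested were called, 8.46% toward higher and 6.27% toward lower. Because the 2 passages were deposited as separate tables, only changes within a passage entered this test.

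For Cxcl1 the change was 0.82 at passage 1 and -0.21 at passage 6 on the log2 scale, a difference of -1.03 (SE 0.18, limma adjusted p = 0.00364). Il6 went from a change of 0.89 to one of 0.08, a difference of -0.81 (SE 0.19, limma adjusted p = 0.0164). Of the inducible inhibitors, Nfkbia differed by -0.66 (SE 0.08, limma adjusted p = 0.000665) and Tnfaip3 by -0.49 (SE 0.14, limma adjusted p = 0.0367). Nfkb2 differed by -0.55 (SE 0.11, limma adjusted p = 0.00735). Nfkbia and Nfkb2 were each called higher at passage 1 and lower at passage 6, as were 36 of the 11908 genes tested at both passages, or 0.302%. The change of Ccl2 did not differ between the passages beyond the spread (difference -0.36, 95% interval -1.04 to 0.31, limma adjusted p = 0.469), an interval that allows a smaller or a somewhat larger rise at passage 6. Nfkb1 (-0.17) and Relb (-0.1) had differences that were not called (limma adjusted p = 0.277 and 0.539). Csf1 differed by -0.37 (limma adjusted p = 0.101) and was called without passage 1 experimental library 4 (0.0441).

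The call for Tnfaip3 was lost without any 1 of 10 of the 13 libraries (limma adjusted p = 0.0504 to 0.0931), and remained without passage 1 experimental library 2, passage 6 control 3 or passage 6 experimental library 3. Without passage 6 experimental libraries 2 and 3 the differences of Cxcl1 (-0.75), Nfkbia (-0.63) and Nfkb2 (-0.52) were called (limma adjusted p = 0.00689, 0.00477 and 0.0434), while Il6 and Tnfaip3 had 0.131 and 0.0704.

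By level, which FPKM allow since they are per length of transcript, the passage 1 controls ran from Nfkbia (61.2 ± 1.56 FPKM, mean ± SD, n = 3) and Cxcl1 (55.9 ± 2.09) through Csf1 (11.7 ± 0.298), Nfkb2 (6.68 ± 0.214), Nfkb1 (5.56 ± 0.166), Il6 (4.86 ± 0.49) and Relb (3.94 ± 0.21) to Ccl2 (1.2 ± 0.13) and Tnfaip3 (1.2 ± 0.0931), with Ccl7 listed at 0. The libraries of Nfkb1 and Il6 overlapped in level, as did those of Ccl2 and Tnfaip3. In the passage 1 experimental libraries Cxcl1 (100 ± 10.4 FPKM, n = 4) came before Nfkbia (76.6 ± 4.8), and Ccl2 (11.4 ± 1.28) stood between Csf1 (16 ± 2.71) and Il6 (9.96 ± 1.91), with overlap between Ccl2 and Il6. In the passage 6 controls Cxcl1 was at 105 ± 1.1 FPKM, Nfkbia at 51.1 ± 1.79 and Csf1 at 21.9 ± 0.517 (n = 3). The passage 6 controls of Csf1 (21.3 to 22.4 FPKM) lay above the passage 1 experimental libraries (13.4 to 19.3 FPKM), and those of Cxcl1 (104 to 106 FPKM) within their range (92.9 to 115 FPKM). These levels come from tables that may have been scaled separately, and were not tested across them.

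The wider pathway was described with 9 lists of genes, 174 in all and 171 in the tables, none of them among the 10. At passage 1, 92 were tested, 22 were called higher and 18 lower, where 11.5% of all genes tested were called higher and 18.9% lower, and their median log2 change was -0.03 against -0.05 over all genes. At passage 6, 86 were tested, 7 were called higher and 16 lower, where 8.98% of all genes were called higher and 10.8% lower, with a median of -0.1 against -0.04. All calls below are from limma with adjustment over all genes tested. Without passage 1 control 1 and experimental library 4, 441 of all genes tested at that passage were called higher and 588 lower. Of the pathway genes, 7 were then called: Nfkbiz, Cxcl5, Il33, Fas, Zfp36 and Zfp36l2 (higher) and Ccl25 (lower), with adjusted p of 0.0103 to 0.0387. Of these, Cxcl5, Fas and Il33 passed the filter through the experimental libraries, where they are high. The filter favoured their calls, which are therefore not independent support.

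**Figure D4:**
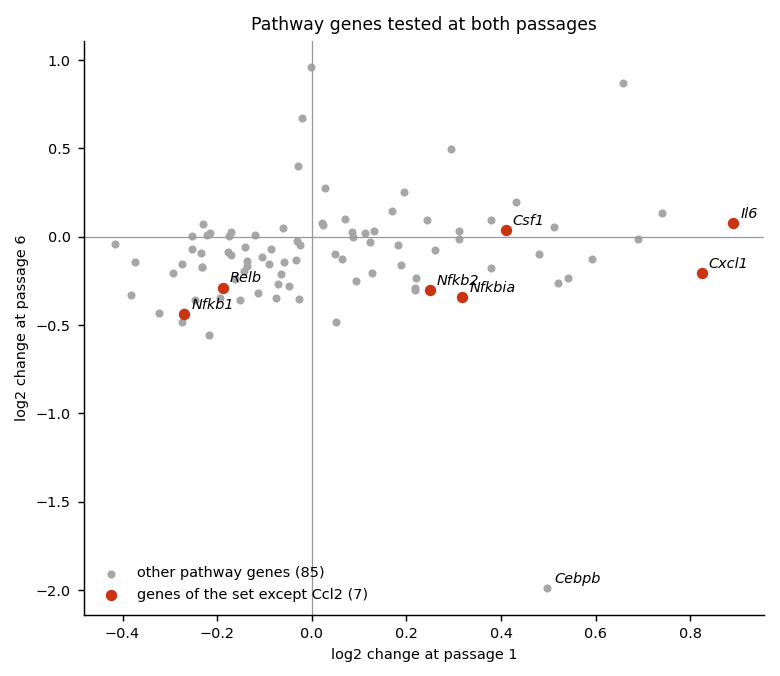
Change in log2(FPKM + 1) at passage 1 (horizontal axis) and at passage 6 (vertical axis) of the genes tested at both passages, for 7 of the 10 genes (large points, named; Ccl2 lies outside the plotted range) and 85 other pathway genes (small points, of which Cebpb is named). Cxcl1, Nfkbia and Nfkb2 lie in the lower right section, where the change is above 0 at passage 1 and below 0 at passage 6, as do 20 of the 85 other genes.

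Of the other NF-kB subunits and IkB proteins, 7 of 8 were tested, with 2 higher and 1 lower at passage 1 and 1 of each at passage 6. Over all genes tested, 30.4% were called in either direction at passage 1 and 19.8% at passage 6. Nfkbiz, an inducible nuclear IkB protein that cooperates with NF-kB on Il6, measured 26.7, 27.6 and 26.5 FPKM in the passage 1 controls against 37.2, 38.9, 37.8 and 38 FPKM in the experimental libraries, a tight 1.4-fold rise (adjusted p = 0.00022). At passage 6 it was at 32.3 ± 0.599 and 30.3 ± 4.17 FPKM (SD over 3 libraries each, adjusted p = 0.475). Rela, the main transactivating subunit, was 1.19-fold lower at passage 1 (17.9 ± 0.394 against 14.9 ± 0.805 FPKM, adjusted p = 0.0093). Its passage 6 change of -0.07 was not called (adjusted p = 0.438).

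Among 25 IkB kinases and upstream adaptors, 3 were higher and 9 lower of 23 tested at passage 1, and 0 higher and 6 lower of 22 at passage 6, against the shares of 11.5% higher and 18.9% lower, and 8.98% and 10.8%, over all genes. Birc2, a ubiquitin ligase of TNF receptor complexes, was 1.3-fold lower at passage 1 (adjusted p = 0.00787), and Tradd, the TNF receptor adaptor, 1.3-fold lower (adjusted p = 0.0138, and 0.0617 without control 2). At passage 6 Tbk1, an IKK-related kinase, fell from 20.4 ± 0.183 to 16.2 ± 0.502 FPKM (SD over 3 libraries each, adjusted p = 0.00588). Irak4, an interleukin receptor kinase, was 1.34-fold lower at passage 6 (adjusted p = 0.0125) and was not called without control 2 or 3 (0.0661 and 0.0603). Sharpin, a subunit of the linear ubiquitin ligase, was 1.28-fold lower (adjusted p = 0.0118) and was not called without control 1 or 2 (0.0552 and 0.0581).

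Of 12 other negative regulators, 2 were higher and 1 lower at passage 1, and 0 were higher and 1 lower at passage 6. The passage 6 gene was Trib3, a pseudokinase (38.9 ± 0.504 against 27.6 ± 1.3 FPKM, SD over 3 libraries each, adjusted p = 0.00227). Receptors of cytokines, chemokines and microbial products had 8 of 25 genes tested at each passage, with 2 higher and 2 lower at passage 1 and 2 higher and 1 lower at passage 6. Of these calls, Tlr2, Tlr4 and Il1rap at passage 1 and Tlr3 at passage 6 passed the filter through the group where each was high. The filter favoured those calls, which are not independent support. For both lists, the shares of all genes called in either direction were 30.4% at passage 1 and 19.8% at passage 6. Tnfrsf1a, the main TNF receptor, was higher at both passages, at 24.9 ± 1.02 against 30.7 ± 1.12 FPKM (adjusted p = 0.00397) and 25.9 ± 0.775 against 37 ± 2.16 FPKM (adjusted p = 0.00296). Ltbr, the lymphotoxin receptor that feeds the noncanonical pathway, was not called at passage 1 (24.2 ± 1.59 against 24 ± 2.91 FPKM, adjusted p = 0.891) and was 1.59-fold higher at passage 6 (21.2 ± 1.22 against 34.4 ± 2.63 FPKM, adjusted p = 0.00239). These 2 receptor genes rose at passage 6 while Nfkb1 and Nfkbia were lower.

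Of 24 other chemokine genes, 22 of them in the tables, 5 were tested at passage 1 and 3 at passage 6, and the 17 tested at neither stayed at or below 1.55 FPKM. At passage 1 there was 1 higher and 1 lower, and at passage 6 there was 1 higher and 0 lower. Cxcl5, a neutrophil chemokine gene, had 0.264, 0.339 and 0.265 FPKM across the passage 1 controls and 1.1, 1.19, 0.979 and 1.35 FPKM across the experimental libraries (adjusted p = 0.00104). All 4 were above the controls. Cxcl5 passed the filter only through the experimental libraries, where it is high, so the filter favoured this call and it is not independent support. Ccl25 was 1.34-fold lower at passage 1 (adjusted p = 0.00582). Of 27 other cytokine genes 4 were tested at passage 1, with 2 higher and 1 lower, and 2 at passage 6, with 0 higher and 1 lower. Beside these chemokine and cytokine counts, 30.4% of all genes were called at passage 1 and 19.8% at passage 6. Il33, an alarmin, rose from 0.953 ± 0.135 to 2.19 ± 0.116 FPKM at passage 1 (SD over 3 and 4 libraries, adjusted p = 0.000621) and passed the filter through the experimental libraries, which favoured this call. Mif, a constitutive cytokine gene with the highest level of the genes named here, was 1.16-fold higher at passage 1 (adjusted p = 0.0247), and that call was lost without control 1, 2 or 3 or experimental library 4 (0.0534 to 0.0945). At passage 6 it was 1.22-fold lower (adjusted p = 0.0361), a call lost without control 1, 2 or 3 or experimental library 2 or 3 (0.073 to 0.129).

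Factors that control the decay of cytokine transcripts were tested for 9 of 10 genes, with 3 higher and 0 lower at passage 1 and 0 higher and 2 lower at passage 6, where 30.4 and 19.8% of all genes were called in either direction. Zfp36, which encodes tristetraprolin and destabilises cytokine transcripts, came to 6.52, 6.11 and 5.52 FPKM in passage 1 control libraries, compared with 11.9, 9.82, 11 and 10.4 FPKM in the experimental ones, a 1.67-fold rise (adjusted p = 0.000572). Its relative Zfp36l2 rose 1.61-fold (30.2 ± 0.955 against 49.4 ± 3.22 FPKM, adjusted p = 0.000239). Neither was called at passage 6 (adjusted p = 0.389 and 0.939). Rc3h1, which encodes roquin, was 1.3-fold higher at passage 1 (adjusted p = 0.0119, and 0.055 without control 3).

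Other inducers or regulators of Ccl2 and Il6 had 4 higher and 2 lower of 13 tested at passage 1, and 0 higher and 3 lower of 12 at passage 6. The shares of all genes called in either direction were 30.4% and 19.8%. Socs3, a feedback inhibitor induced by IL-6 signalling, was 1.43-fold higher at passage 1 (1.36 ± 0.118 against 2.39 ± 0.328 FPKM, adjusted p = 0.00535). At passage 6 the AP-1 gene Jun fell from 49.9 ± 0.757 to 35.5 ± 1.16 FPKM (SD over 3 libraries each, adjusted p = 0.00184) and Atf3 from 14 ± 0.769 to 9.23 ± 0.943 FPKM (adjusted p = 0.00536). At passage 1 the 4 experimental libraries were split for Atf3, at 16.6, 12.4, 35.2 and 35.1 FPKM around controls of 26.1 to 26.8 FPKM.

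Of 25 other NF-kB target genes 11 were tested at each passage, with 3 higher and 1 lower at each, where 30.4 and 19.8% of all genes were called in either direction. Fas, the death receptor gene, measured 0.802, 0.98 and 0.756 FPKM in the passage 1 controls against 1.71, 1.6, 1.68 and 2.78 FPKM in the experimental libraries (adjusted p = 0.00979). At passage 6 it had 0.575, 0.551 and 0.681 FPKM across the controls and 2.98, 1.23 and 1.8 FPKM across the experimental libraries (adjusted p = 0.0245). Every experimental library was above every control at both passages, but Fas passed the filter only through the experimental libraries, and the passage 6 call was lost without control 1, 2 or 3 or experimental library 3 (0.0648 to 0.0853). Irf1 was lower at both passages, by 0.32 and 0.43 on the log2 scale (adjusted p = 0.0106 and 0.00969). Its passage 1 call was lost without control 1 (0.0503) and its passage 6 call without control 2 or 3 (0.0509 in both cases). Mmp9, a matrix protease gene, was higher at passage 1 (0.777 ± 0.0546 against 1.61 ± 0.368 FPKM, adjusted p = 0.012) and passed the filter only through the experimental libraries. The filter favoured the calls of Fas and Mmp9, which are part of the counts of this list and are not independent support.

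Other genes named by the same rule had calls that were each lost without at least 2 single libraries. At passage 1 these were Nfkbid, Irak2, Traf5, Zc3h12a, Tax1bp1, Tlr2, Ier3, Cebpb and Stat3 (higher) and Tnip2, Tnfsf12, Il1rap and Hmga1 (lower), and at passage 6 Nfkbib, Cx3cl1, Tapbp and Bcl2l1 (higher) and Rel, Chuk, Tlr3, Hnrnpd, Khsrp and Atf4 (lower). Tlr2, Il1rap and Tlr3 passed the filter through the group where they were high, which favoured their calls. Cx3cl1, a chemokine gene of neurons, came to 1.54, 1.36 and 1.81 FPKM in passage 6 control libraries, compared with 2.24, 5.9 and 4.57 FPKM in the experimental ones, high in libraries 2 and 3, where brain markers were also high. The part of those transcripts in the result was not tested. Without experimental libraries 2 and 3, the log2 change of Cx3cl1 was 0.34 from 1 experimental library, against 0.96 with all libraries. Tlr4 was lower at passage 1 (1.34 ± 0.151 against 0.687 ± 0.0253 FPKM, adjusted p = 0.00385) and passed the filter through the controls, which favoured this call.

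The genes whose pattern was most like that of Ccl2 were found by the Pearson correlation of log2(FPKM + 1), with the mean of each passage removed, over the 13 libraries and 11899 genes. These were Efhd2 (0.98), Acta2 (0.98), Tmem9 (0.98), Wls (0.98) and Actg2 (0.98), and the libraries share their scaling and the separation of control from experimental cells. Acta2, a smooth muscle actin gene, stood at 12.7 ± 2.3 against 213 ± 13.3 FPKM at passage 1 and at 8.2 ± 2.36 against 87.8 ± 6.66 FPKM at passage 6. Wls, which carries Wnt proteins to the cell surface, stood at 1.85 ± 0.00786 against 4.6 ± 0.271 FPKM at passage 1 and at 3.22 ± 0.235 against 6.99 ± 0.638 FPKM at passage 6. Among the other 9 genes of the set, Il6 had 0.77, Csf1 0.63 and Cxcl1 0.61, Nfkbia 0.12 and Nfkb2 0.04, and Nfkb1 and Relb both -0.86. These values describe the 13 libraries and carry no test.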

How the data were processed

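Poly(A) RNA was sequenced in 13 libraries. The authors deposited FPKM in 1 table per passage, with 34857 Ensembl identifiers, of which 34731 matched a symbol in the GENCODE annotation of GRCm38. Per the submitters' processing notes, the tools were HISAT2, StringTie, cutadapt, edgeR and DESeq2, without versions, and the build mm10; how FPKM were scaled between libraries is not given in the sources used here. A gene, with an empty cell, was dropped. Libraries were grouped by their labels.

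Each passage was fitted on its own with limma 3.58.1 (R 4.3.3, intensity trend, equal weights) on log2(FPKM + 1). A gene entered the fit where 3 or more libraries of that passage reached 1 FPKM. Tests were two-sided, with Benjamini-Hochberg adjustment over all genes tested and a threshold of 0.05. The difference between passages was a contrast over all 13 libraries. FPKM are not counts, the depth is known only from the steps between low values, and whole reads could not be recovered, so no count test was run. Scripts used Python 3.11.15, numpy 2.4.6, pandas 2.3.3, scipy 1.17.1 and matplotlib 3.10.9, and the fit was tested on simulated data.

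The 10 genes and all lists were chosen with earlier results of these data known. From each pathway list, up to 4 called genes with the largest change per passage were named, and the 5 genes most correlated with Ccl2. The libraries high or low in tissue markers were doubted from an earlier description of these data. Alternatives were a pseudocount of 0.1 or 5, a filter at 5 FPKM or none, scaling by median of ratios, by quantiles or to equal totals, limma with array weights, with robust settings or without trend, a block for the replicate number, a joint fit of the passages, and leaving out single libraries or the doubted pairs. Same-numbered control and experimental libraries did not deviate together (correlations of 0.166, -0.192 and 0.239 at passage 1 and -0.0664, -0.06 and 0.0332 at passage 6), so the numbers were not treated as pairs. Promoter windows are RefSeq's (GRCm38.p6).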

Additional observations from a re-analysis of the deposited data

Results flagged for a closer look

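Among the 4 passage 1 experimental libraries, 1 library lay apart from the other 3 for 2 of 57 genes examined, with a gap that was 0.962 of the whole range for Il1rap and 0.91 for Fas, where 0.829 is the critical value. Il1rap was at 0.836, 0.754, 0.835 and 0.838 FPKM, with library 2 low, and Fas at 1.71, 1.6, 1.68 and 2.78 FPKM, with library 4 high. Chance marks about 1 in 20 such groups.

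The change differed between the passages by limma (passage 6 minus passage 1, log2, adjusted over 13019 genes) for 5 of the 10 genes: Cxcl1 by -1.03, Il6 by -0.813, Nfkbia by -0.659, Nfkb2 by -0.552 and Tnfaip3 by -0.49. Of the other pathway genes named, the difference was below 0 for Nfkbiz (-0.578), Il33 (-0.64), Mif (-0.506), Mmp9 (-0.778), Zfp36 (-0.606), Zfp36l2 (-0.701), Rc3h1 (-0.556), Socs3 (-0.779), Jun (-0.533) and Atf4 (-0.522). It was above 0 for Ltbr (0.691), Tlr4 (0.388), Ccl25 (0.374) and Il1rap (0.304). Il33 and Tlr4 passed the filter at passage 1 alone. Il33 did so through the experimental libraries and Tlr4 through the controls, where each was high, which favours these signs. The calls of Tnfaip3, Ccl25, Tlr4 and Il1rap were lost without 10, 6, 5 and 11 of the 13 libraries, 1 at a time (adjusted p = 0.0504 to 0.0931, 0.0571 to 0.0837, 0.0502 to 0.071 and 0.05 to 0.102).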

How the results depend on the processing

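Of 1875 values of single genes under an alternative, 1546 kept their direction and their side of the threshold, 319 kept the direction but lost the call, 5 gained one and 5 changed sign. Ccl2 was called higher at both passages under every alternative run, and Cxcl1 and Il6 at passage 1. The signs that changed were those of uncalled values: without passage 6 experimental libraries 2 and 3, Cxcl1 at passage 6 had 0.069, Csf1 -0.037 and the Ccl2 difference between passages 0.23; with single libraries left out Il6 at passage 6 ran from -0.056 (without experimental library 1) to 0.19 and Csf1 from -0.0197 (without experimental library 3) to 0.076. With no filter the calls among the 10 genes went from 8 to 5 at passage 1 (Ccl7, at 0 in all 3 controls, among the 5), from 5 to 3 at passage 6 and from 5 to 3 for the difference, where more genes were tested, and among pathway genes from 40 to 25 and from 23 to 11. Over all genes, 1108 were then called higher and 1893 lower of 30366 at passage 1, and 641 and 645 of 31320 at passage 6. For the difference, 732 and 453 of 33644 were called. With a minimum of 5 FPKM, where fewer genes were tested, 22 pathway genes were called at passage 1, beside 1055 higher and 1572 lower of all 7835 genes. At passage 6, median-of-ratios scaling and quantile normalization each left 3 of the 10. Over all genes they gave 1374 higher and 1099 lower, and 1259 and 1105. Without passage 1 control 1 and experimental library 4, 3 of the 10 and 7 pathway genes were called, where 441 of all genes were called higher and 588 lower. Leaving out 1 library gave 4 to 9 calls among the 10 at passage 1, 3 to 5 at passage 6 and 4 to 5 for the difference, and 17 to 40 and 6 to 30 pathway genes. Where libraries were left out, fewer samples were fitted, and calls over all genes often fell too. At passage 1 they went from 1434 higher and 2358 lower to 845 to 873 higher and 1300 to 1338 lower without 1 control. At passage 6 they went from 1119 and 1343 to 397 to 418 higher and 326 to 418 lower without 1 control. The calls did not always fall, and at passage 6 they rose to 1885 higher and 2411 lower without experimental library 1. The cause of these shifts was not tested, nor was that of the shifts with scaling.

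The split of all calls at passage 1 moved with scaling, from 1434 higher and 2358 lower as deposited to 1723 and 1810 when totals were made equal, 1876 and 1728 when scaled by median of ratios and 1827 and 1816 by quantiles; at passage 6 it was 1119 and 1343 as deposited, and 1374 and 1099 by median of ratios. None of the 9 genes tested at passage 1 or the 8 tested at passage 6 changed sign under these scalings.

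With the replicate number as a block, which the labels do not tie to shared vials or days, the calls among the 10 genes came to 5 for passage 1, 3 for passage 6 and 4 differences, with 16 and 14 pathway genes. Calls over all genes fell as well. They were 715 higher and 1098 lower of 12469 at passage 1, 695 and 743 of 12458 at passage 6, and 450 and 278 of 13019 for the difference. Depth limits the values of Ccl7, which reached 1 FPKM in no library. Tnfaip3, at 0.67 to 2.11 FPKM, and Ccl2 in controls, at 0.996 to 2.25 FPKM, were also low.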

Other observations

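Cebpb, which encodes a transcription factor that acts with NF-kB on Il6, measured 16.6, 16.1 and 18.5 FPKM in the passage 1 controls against 22.2, 20, 30.5 and 26.3 FPKM in the experimental ones. At passage 6 it had 15, 14.9 and 14.3 FPKM across the controls and 14.4, 0.821 and 1.23 FPKM across the experimental libraries, so that libraries 2 and 3 were far below all others. Its passage 6 change of -1.99 on the log2 scale was not called (limma adjusted p = 0.0975). These are the 2 libraries with high summed liver markers, whose part in the result was not tested, and Cebpb was singled out after its values were seen.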
